A study of Homo sapiens with 8 samples.

Results

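The 7 genes described here encode the core of the PML nuclear body and the SP100 family: SP100, SP110, SP140, SP140L, PML, DAXX and ATRX. They were chosen by name out of 35805 genes listed. SP100 was in view because it was higher with the IRF2 guides while most interferon genes were lower, so its values against the controls are given as a description, with no test. The RNA came from K562, an established leukaemia line of erythroid character. All groups, the controls included, carried dCas9-KRAB, an inactive Cas9 joined to a repressor domain that silences the promoter to which a guide RNA leads it. Cells received sg1-IRF2 or sg2-IRF2, independent guides to IRF2. The controls were cells with sgAAVS1, a guide to the AAVS1 site, and untransduced cells with no guide. Each of these 4 groups had 2 libraries, and RNA from guide-carrying cells was taken 7 days after transduction. The labels do not say whether the cells were a clone, or whether the paired libraries were separate cultures.

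PML nuclear bodies are round protein assemblies in the nucleus. PML builds their shell, with the help of its modification by SUMO, and recruits SP100, DAXX and many other partners. DAXX and ATRX together place histone H3.3 at repeats and telomeres, and all these proteins restrain incoming DNA viruses. SP100, SP110, SP140 and SP140L are chromatin-binding paralogs that lie side by side and mostly carry a SAND domain, a PHD finger and a bromodomain. PML and SP100 are classical interferon-induced genes. IRF2 is a transcription factor that binds interferon-response elements, and was first described as an antagonist of IRF1.

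IRF2 itself was low in every library with an IRF2 guide. It had 4 and 8 reads under sg1-IRF2 and 22 and 21 reads under sg2-IRF2, against 196 and 291 reads with sgAAVS1 and 271 and 268 reads in untransduced cells. Its difference between both IRF2 guides and sgAAVS1 was -4.51 ± 0.18 on the log2 scale (standard error), with adjusted p = 2.5e-16 in the limma moderated test. Here and below, p-values are adjusted over the 14665 genes with a mean log2 value of at least 0, and a gene with adjusted p under 0.05 is said to have passed. Libraries held 5248359 to 6738348 reads over the listed genes. All 12 K562 markers had reads in the libraries, with sums of 8222 to 9789 reads, while the lymphoid markers CD2, CD8A and MS4A1 had none in any library. Between the paired libraries, chi-square divided by its degrees of freedom was 0.78 with sg1-IRF2, 0.659 with sg2-IRF2, 1.66 with sgAAVS1 and 0.82 in untransduced cells. Counting noise alone gives about 1, so 3 of the pairs differed by less than counting noise. The cause was not tested, and the labels do not exclude that such a pair is 1 library sequenced again. Counting intervals given below assume a value of 1. These pairs were kept as 2 libraries each in the tests. An analysis with each close pair counted as 1 library was added after seeing the data. Only the sgAAVS1 pair was then left to give the spread, so that fit cannot decide whether a gene changed. In it, the SP100 difference between both IRF2 guides and sgAAVS1 was 0.23 ± 0.09.

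The SP100 family occupies 1 stretch of chromosome 2 (hg38). SP110 lies on the minus strand at chr2:230167293-230225729, and SP140 overlaps its 5′ end on the plus strand, at chr2:230203110-230313215. SP140L follows at chr2:230327184-230403732 and SP100 at chr2:230415942-230544090, both on the plus strand. PML lies at chr15:73994673-74047812 on the plus strand. DAXX lies at chr6:33318558-33329269 and ATRX at chrX:77504878-77786269, both on the minus strand.

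Since the 4 family genes share a locus and a history of duplication, their promoter windows are shown. Each runs from 250 bases before to 50 bases after a RefSeq start (GRCh38.p14) and is written in the direction of the gene. Capitals mark every match, on either strand, to AANNGAAA, the short core bound by interferon regulatory factors. The windows are chr2:230415951-230416250 (plus strand) for SP100, chr2:230326943-230327242 (plus) for SP140L, and chr2:230225587-230225886 and chr2:230219935-230220234 (both minus) for SP110.
SP100: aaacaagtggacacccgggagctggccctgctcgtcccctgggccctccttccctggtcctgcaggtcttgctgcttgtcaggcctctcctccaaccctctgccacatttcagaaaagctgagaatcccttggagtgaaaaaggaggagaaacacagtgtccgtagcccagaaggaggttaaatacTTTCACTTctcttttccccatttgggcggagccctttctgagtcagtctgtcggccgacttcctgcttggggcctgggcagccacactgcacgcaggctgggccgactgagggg
SP140L: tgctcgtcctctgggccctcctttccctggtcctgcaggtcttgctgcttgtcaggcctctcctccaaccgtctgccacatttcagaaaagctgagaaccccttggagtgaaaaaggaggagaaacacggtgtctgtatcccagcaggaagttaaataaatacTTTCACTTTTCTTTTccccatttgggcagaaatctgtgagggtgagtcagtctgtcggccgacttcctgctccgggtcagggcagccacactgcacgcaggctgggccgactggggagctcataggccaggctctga
SP110, upstream start: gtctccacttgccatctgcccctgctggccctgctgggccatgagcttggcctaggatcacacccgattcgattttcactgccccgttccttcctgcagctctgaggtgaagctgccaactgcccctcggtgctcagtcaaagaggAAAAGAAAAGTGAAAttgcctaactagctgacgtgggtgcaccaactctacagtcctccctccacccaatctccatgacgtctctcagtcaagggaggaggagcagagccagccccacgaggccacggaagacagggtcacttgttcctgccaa
SP110, downstream start: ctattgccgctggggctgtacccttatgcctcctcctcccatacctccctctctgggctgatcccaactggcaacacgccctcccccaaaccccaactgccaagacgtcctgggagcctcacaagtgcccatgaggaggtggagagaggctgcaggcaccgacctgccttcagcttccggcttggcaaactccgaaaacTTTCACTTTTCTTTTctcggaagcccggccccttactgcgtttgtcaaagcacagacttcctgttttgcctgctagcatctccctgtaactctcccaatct

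The SP100 and SP140L windows were near copies, identical at 251 of 281 aligned positions (89.3%). SP140L held 2 overlapping matches in a run of 15 bases, and SP100 held 1. Against SP140L, SP100 carried T9C in that run, counted from 1 at the first capital, and held no second match. The matches began 64 bases before the start in SP100, and 87 and 80 bases before it in SP140L. The same 15 bases stood in the downstream window of SP110 and, read on the other strand, in its upstream window. That upstream window overlaps the SP140 window (chr2:230225486-230225785, plus strand) by 199 bases, so SP110 and SP140 share it. The other SP100 window held no match.

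AANNGAAA was chosen after the sequences were seen, and it is common: 22.8% of 35116 human promoter windows of this length held it. Counted by gene, with a match in any window, 26.7% of 27305 genes held it, and 51 of 58 interferon-stimulated genes (87.9%). The longer interferon-stimulated response element core, GAAANNGAAA, was found in none of the 6 family windows. It occurred in 3.57% of all windows. By gene, it occurred in 4.38% of all genes and in 41 of the 58 interferon-stimulated genes (70.7%). TTCNNNGAA, the gamma-activated site of interferon-responsive promoters, was found in the downstream SP110 window alone among the family, against 7.66% of all windows. These are matches of letters in one window each. They do not show binding, and nothing is said here of sites outside the windows. Promoters of PML, DAXX and ATRX were not analysed here.

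The genes differed widely in abundance. Per kilobase of exon and on the linear scale of the deposited values, DAXX had the highest median level over the 8 libraries (49.7, range 46.0 to 52.8). It was followed by PML (12.9, range 12.4 to 13.6), ATRX (10.3, range 9.75 to 11.01), SP140L (8.08, range 7.42 to 9.10) and SP100 (5.54, range 4.995 to 6.47). SP110 was low (1.43, range 1.05 to 1.68) and SP140 was near the detection limit (0.0361, range 0.0290 to 0.0914). The ranges of neighbours in this order did not overlap, so the order was the same in all 8 libraries. Exon lengths are unions over annotated transcripts, which lowers the level of a gene with many isoforms. For DAXX, 14.3% of the exonic bases are shared with AL662820.1 on the same strand, and reads there could have been split or lost. The deposited DAXX gene also extends to chr6:33329269, while the annotated gene that gave the exon length ends at 33323016. Lost reads would make the DAXX level per kilobase too low, while the longer deposited gene could make it too high. Neither was tested.

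**Figure D1:**
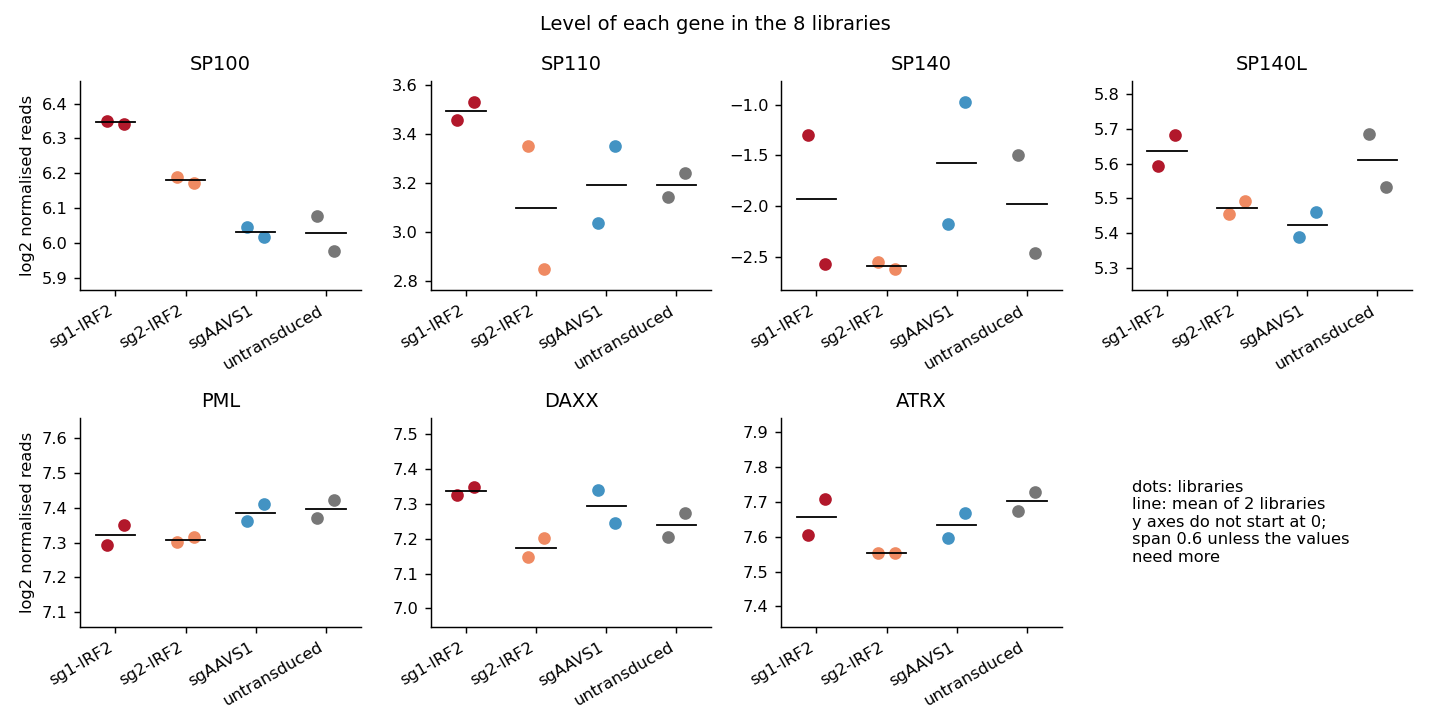
Deposited log2 values of the 7 genes (vertical axis, log2 normalised reads) in the 8 libraries, by group along the horizontal axis; dots are libraries and lines are means of 2. SP100 lies at 6.17 to 6.35 in the 4 libraries with an IRF2 guide and at 5.98 to 6.08 in the 4 controls, and PML lies just below its controls.

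SP100 encodes a nuclear body component that binds HP1 proteins and represses viral genes. Its log2 normalised level was 6.35 and 6.34 under sg1-IRF2 and 6.19 and 6.17 under sg2-IRF2, against 6.05 and 6.02 with sgAAVS1 and 6.08 and 5.98 in untransduced cells. All 4 libraries with an IRF2 guide were above all 4 controls, with the sg1-IRF2 libraries highest. Of all 14665 genes tested, 0.948% showed that separation. SP100 was chosen by this direction, so the share does not measure how unusual SP100 is.

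In reads, SP100 had 401 and 435 under sg1-IRF2 and 429 and 401 under sg2-IRF2, against 298 and 381 with sgAAVS1 and 382 and 347 in untransduced cells. The guide libraries had more reads than every control library before any scaling as well. Corrected for depth, the pooled reads with an IRF2 guide were 1.17 times those of the 4 controls. The 95% counting interval was 1.09 to 1.26. It covers counting error only and is no test, since SP100 was chosen by this direction. The group means were 6.35 ± 0.0065 with sg1-IRF2 and 6.18 ± 0.012 with sg2-IRF2, against 6.03 ± 0.020 with sgAAVS1 and 6.03 ± 0.070 in untransduced cells (SD, n = 2 each). Counting alone gives an SD of 0.0692 at 435 reads and 0.0836 at 298 reads, so the sg1-IRF2, sg2-IRF2 and sgAAVS1 pairs lay closer than counting alone gives. The SD of the untransduced pair lay between these counting values.

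The log2 difference of SP100 between both IRF2 guides and sgAAVS1 was 0.23 ± 0.06, a fold of 1.17. Against untransduced cells it was 0.24 ± 0.06. By guide, it was 0.31 ± 0.07 for sg1-IRF2 and 0.15 ± 0.07 for sg2-IRF2 against sgAAVS1. Between the control groups, sgAAVS1 and untransduced cells, it was 0.00 ± 0.07. In these bulk samples, a small change in all cells and a larger change in some of them cannot be told apart.

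The sg1-IRF2 libraries were above the sg2-IRF2 libraries by 0.17 ± 0.07 for SP100, which did not pass the limma moderated test (adjusted p = 0.0885, 95% interval 0.03 to 0.30). The median of all genes differed between these groups by 0.112 in the same direction, and SP100 stood only 0.05 above that median. Both sg1-IRF2 libraries exceeded both sg2-IRF2 libraries for 58.3% of all genes. For IRF2, the difference of sg1-IRF2 from sg2-IRF2 was -1.77 ± 0.21 (limma adjusted p = 9.7e-06).

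SP140L, which lies next to SP100 and has a closely similar promoter, had log2 levels of 5.59 and 5.68 under sg1-IRF2 and 5.46 and 5.49 under sg2-IRF2. It had 5.39 and 5.46 with sgAAVS1 and 5.68 and 5.53 in untransduced cells. The guide libraries overlapped both control groups, and one untransduced library was the highest of the 8. The difference between both IRF2 guides and sgAAVS1 was 0.13 ± 0.07 (limma adjusted p = 0.539, 95% interval -0.01 to 0.28). Against untransduced cells it was -0.05 ± 0.07 (adjusted p = 0.824), with the opposite sign. The controls themselves differed by -0.18 ± 0.08 for sgAAVS1 against untransduced cells (adjusted p = 0.211).

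The ratio of SP100 to SP140L reads within a library, which no scaling between libraries touches, was computed after seeing the data. It was 1.69 and 1.58 under sg1-IRF2 and 1.66 and 1.60 under sg2-IRF2, against 1.58 and 1.47 with sgAAVS1 and 1.31 and 1.36 in untransduced cells. Every guide library was above every control library, but the higher sgAAVS1 ratio lay just under the lowest guide ratio. The mean ratio was 1.64 with the IRF2 guides, against 1.52 with sgAAVS1 and 1.34 in untransduced cells. On the log2 scale the ratio was higher with the guides by 0.10 against sgAAVS1 and by 0.29 against untransduced cells. SP100 shares no run of 50 exonic bases with SP110, SP140 or SP140L in the annotation. A read that long with an exact match to SP100 would thus not match these genes exactly. Shorter reads and reads with mismatches were not examined. The pseudogene HMGB1P3, on the same strand, shares 4.31% of the SP100 exonic bases.

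**Figure D2:**
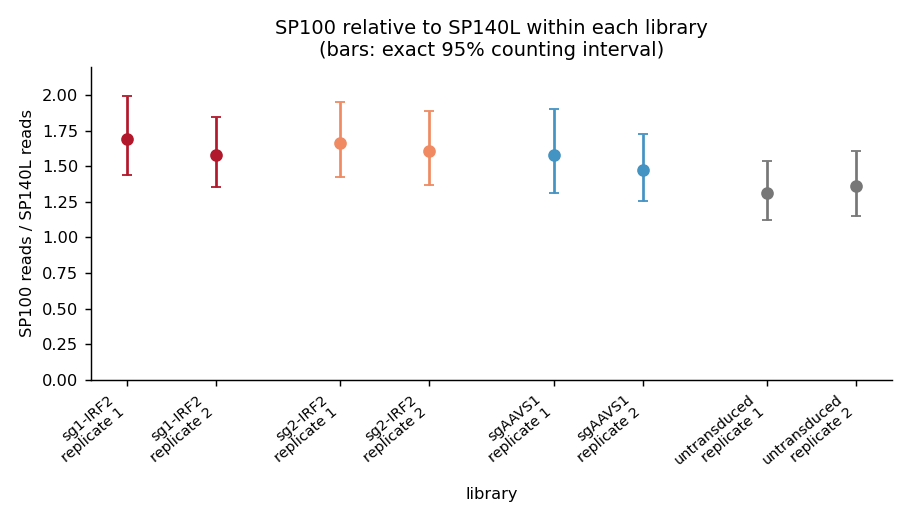
Ratio of SP100 to SP140L reads (vertical axis, starting at 0) in each of the 8 libraries (horizontal axis), with exact 95% counting intervals as bars. The ratio is 1.58 to 1.69 with the IRF2 guides, 1.47 to 1.58 with sgAAVS1 and 1.31 to 1.36 in untransduced cells, and the intervals of sgAAVS1 and guide libraries overlap.

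SP110 encodes a family member linked in humans to hepatic veno-occlusive disease with immunodeficiency. Its log2 levels were 3.46 and 3.53 under sg1-IRF2 and 3.35 and 2.85 under sg2-IRF2, against 3.04 and 3.35 with sgAAVS1 and 3.14 and 3.24 in untransduced cells. The lowest and the highest library both carried an IRF2 guide, so the groups overlapped. These values rest on 37 to 62 reads a library. The difference was 0.10 ± 0.17 against sgAAVS1 (limma adjusted p = 0.897, 95% interval -0.24 to 0.44). Against untransduced cells it was 0.11 ± 0.17 (adjusted p = 0.867). A change of the size seen for SP100 was thus not detectable for SP110 at this depth. The antisense gene AC009950.1 covers 18.4% of the SP110 exons, and without the strand setting of the counts its reads cannot be told apart.

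SP140 encodes a family member found mainly in lymphocytes and macrophages. It had 2 and 0 reads under sg1-IRF2 and 1 and 0 under sg2-IRF2, against 1 and 3 with sgAAVS1 and 2 and 1 in untransduced cells. With 10 reads over all 8 libraries it did not pass the filter on low values and was not tested. The ratio of the pooled reads, 3 with IRF2 guides against 7 in controls, was 0.426 with a counting interval of 0.071 to 1.86. SP140 shares 10.8% of its runs of 50 exonic bases with SP140L, so even these reads are uncertain.

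PML encodes the scaffold of the bodies. Its log2 levels were 7.29 and 7.35 under sg1-IRF2 and 7.30 and 7.32 under sg2-IRF2, against 7.36 and 7.41 with sgAAVS1 and 7.37 and 7.42 in untransduced cells. All 4 libraries with an IRF2 guide were below all 4 controls, a separation seen in 1.79% of all genes tested. The gap between the groups was 0.012, less than the counting SD of 0.0456 at 1000 reads. The difference was -0.07 ± 0.04 against sgAAVS1 (limma adjusted p = 0.616). Relative to untransduced cells it was -0.08 ± 0.04 (adjusted p = 0.422). Against all 4 control libraries it was -0.08 ± 0.04 (adjusted p = 0.567, unadjusted p = 0.0419), so PML did not pass the test. The pooled reads, corrected for depth, were 0.948 times those of the controls, with a counting interval of 0.905 to 0.993.

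DAXX encodes the H3.3 chaperone that PML and SUMO bring to the bodies. Its log2 levels were 7.32 and 7.35 under sg1-IRF2 and 7.15 and 7.20 under sg2-IRF2, against 7.34 and 7.24 with sgAAVS1 and 7.21 and 7.27 in untransduced cells. The control libraries lay between the guides, above sg2-IRF2 and at or below the higher sg1-IRF2 library. The difference was -0.04 ± 0.05 against sgAAVS1 (limma adjusted p = 0.851, 95% interval -0.13 to 0.06), and 0.02 ± 0.05 relative to untransduced cells (adjusted p = 0.937). Between the guides, DAXX passed the test, with a level in sg1-IRF2 cells 0.16 ± 0.05 above that in sg2-IRF2 cells (limma adjusted p = 0.0422). That difference was 0.05 relative to the median of all genes, and DAXX did not pass with library medians aligned (adjusted p = 0.741).

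ATRX encodes the chromatin remodeller that acts with DAXX. Its log2 levels were 7.61 and 7.71 under sg1-IRF2 and 7.55 and 7.55 under sg2-IRF2, against 7.60 and 7.67 with sgAAVS1 and 7.67 and 7.73 in untransduced cells. The sg2-IRF2 libraries were the lowest of the 8, and the sg1-IRF2 libraries overlapped both controls. The difference was -0.03 ± 0.04 against sgAAVS1 (limma adjusted p = 0.895). Set against untransduced cells it was -0.10 ± 0.04 (adjusted p = 0.309, unadjusted p = 0.0354).

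**Figure D3:**
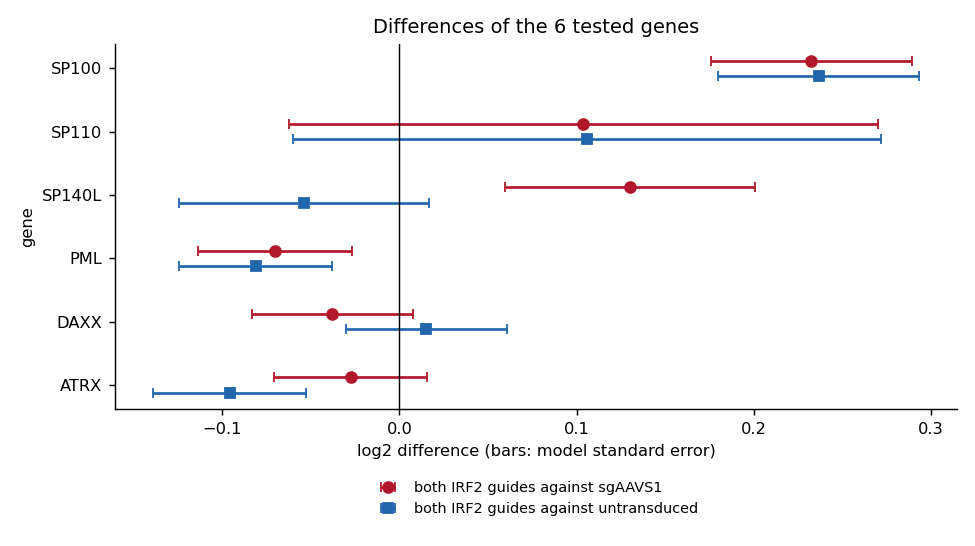
Log2 differences (horizontal axis) of the 6 tested genes (vertical axis) between both IRF2 guides and either control, with model standard errors as bars. SP100 stands at 0.23 and 0.24, SP140L changes sign with the control (0.13 and -0.05), and PML, DAXX and ATRX lie between -0.10 and 0.02.

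SP110, SP140L, PML, DAXX and ATRX did not pass the test for both IRF2 guides against sgAAVS1, where 1.59% of all genes passed. They did not pass against untransduced cells either, where 2.5% of all genes did. By unadjusted p under 0.05, none of these did against sgAAVS1 and ATRX did against untransduced cells. The share of all genes at that unadjusted threshold was not counted, so nothing is read from it. SP100 is left out of the counts against either control, since it was chosen by its direction there and the comparisons share the guide libraries. Between sg1-IRF2 and sg2-IRF2, 1 of the 6 tested genes passed, DAXX, where 13.3% of all genes passed and 12.7% were higher with sg1-IRF2. For sgAAVS1 against untransduced cells none of the 6 passed, where 4.75% of all genes did. By unadjusted p under 0.05, SP140L did, again with no share over all genes counted. The median difference of the 6, SP100 included, was 0.0382 against sgAAVS1 and -0.0194 against untransduced cells, beside -0.0182 and 0.0131 over all genes.

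Genes that work with the nuclear bodies were grouped in lists. The SUMO pathway list holds the modifiers, their E1, E2 and E3 enzymes, the SENP proteases and ubiquitin ligases that bind SUMO. None of its 22 tested genes passed against sgAAVS1 or against untransduced cells, where 1.59% and 2.5% of all genes passed. The list medians were -0.0196 and 0.0117. Between the guides 3 of the 22 rose with sg1-IRF2 against sg2-IRF2, where 12.7% of all genes did: the SUMO proteases SENP3 (0.22 ± 0.06) and SENP6 (0.19 ± 0.05), and RANBP2 (0.15 ± 0.04), a nuclear pore protein with SUMO ligase activity. The median of all genes in that comparison was 0.112. With library medians aligned, none of these 3 passed (SENP3 0.11, adjusted p = 0.397).

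Of 26 tested genes for proteins found at or recruited to the bodies, 1 passed against sgAAVS1, where 1.59% of all genes passed and 1.1% fell. HIPK2 fell there by 0.18 ± 0.05 (limma adjusted p = 0.0440). HIPK2 is a kinase that phosphorylates p53 after DNA damage. Its difference against untransduced cells was -0.10 ± 0.05 (adjusted p = 0.351), and without sgAAVS1 replicate 2 the difference against sgAAVS1 was -0.07. The interferon-induced exonuclease ISG20 had the lowest value of the list, -0.46 ± 0.24 against sgAAVS1 (limma adjusted p = 0.519) and -0.62 ± 0.24 relative to untransduced cells (adjusted p = 0.211). Between the guides 5 of the 26 rose with sg1-IRF2, beside 12.7% of all genes: BLM, a helicase, USP7, a deubiquitinase, NBN and RAD50, of the MRN complex, and CBX5, the HP1 alpha protein. Their differences were 0.13 to 0.18, and none passed with library medians aligned.

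None of 9 tested H3.3 chaperone genes passed against sgAAVS1 or untransduced cells, with medians of -0.0365 and 0.00496. Of all genes, 1.59% and 2.5% passed there. HIRA, the chaperone that places H3.3 at active genes, and ASF1B were the 2 of the 9 that rose with sg1-IRF2 against sg2-IRF2 (12.7% of all genes), by 0.20 ± 0.05 and 0.32 ± 0.07. With library medians aligned, HIRA had 0.09 (adjusted p = 0.487) and ASF1B 0.20 (adjusted p = 0.0984). None of 3 tested relatives with a SAND domain passed against either control. Between the guides, 1 of the 3 rose with sg1-IRF2 against sg2-IRF2, beside 12.7% of all genes. With medians aligned, 231 of all genes passed between the guides, and none of the 11 genes from these lists was among them.

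Interferon-stimulated genes were the contrast in which SP100 was chosen. Of 52 tested, 25 fell and none rose against sgAAVS1, and 27 fell and 2 rose against untransduced cells, with medians of -0.501 and -0.604. Of all genes, 1.1% fell and 0.491% rose against sgAAVS1, and 1.51% fell and 0.982% rose against untransduced cells. Among those that fell were OAS3, a sensor of double-stranded RNA (-3.23 ± 0.25 against sgAAVS1), and IFI6 (-3.44 ± 0.38). Among those that rose against untransduced cells was ZNFX1, a helicase (0.24 ± 0.05). Without untransduced replicate 1 it did not pass (0.17). Leaving out replicate 2 of sg1-IRF2, or replicate 1 of sg2-IRF2, ended the ZNFX1 call as well. Against sgAAVS1, ZNFX1 had a difference of 0.06 ± 0.05 (limma adjusted p = 0.789). PML, which is also interferon-induced, did not pass the test in either direction.

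**Figure D4:**
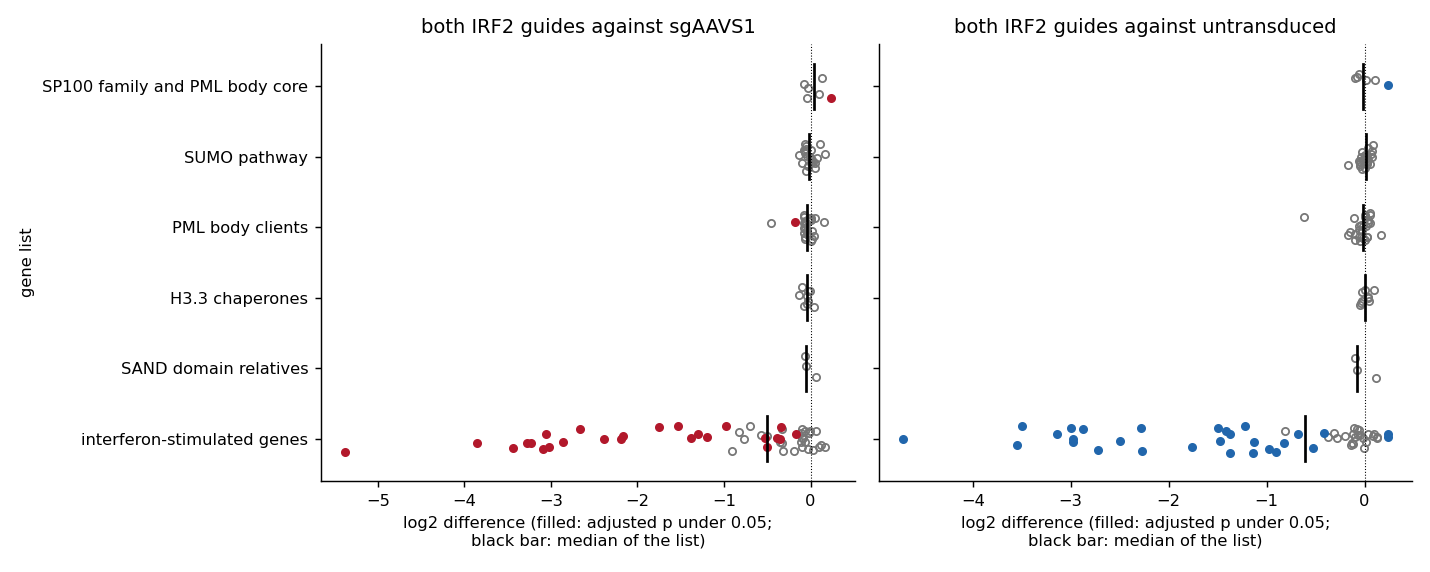
Log2 differences (horizontal axis) of the tested genes in 6 lists (vertical axis), for both IRF2 guides against sgAAVS1 (left) and against untransduced cells (right). Filled points have adjusted p under 0.05 and bars are list medians: the nuclear body lists lie near 0, with HIPK2 filled on the left and SP100, chosen by this pattern, on both sides, and the interferon-stimulated genes reach -5.38 and -4.71.

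The genes around the SP100 locus were also examined. Within 1000 kb of SP100 the table lists 31 genes, the family included, and 9 outside the family were tested. None of the 9 passed against sgAAVS1 or untransduced cells, where 1.59% and 2.5% of all genes passed. Differences of the 9 ran between -0.347 and 0.341 against sgAAVS1 and between -0.145 and 0.865 against untransduced cells. CAB39, the nearest tested gene beyond SP100, had a difference of 0.03 ± 0.04 against sgAAVS1 and -0.02 ± 0.04 against untransduced cells. On the SP110 side SLC16A14 had 0 reads in all libraries. TRIP12, a ubiquitin ligase gene, rose with sg1-IRF2 against sg2-IRF2 by 0.15 ± 0.04 (limma adjusted p = 0.0228), where 12.7% of all genes rose. With library medians aligned, TRIP12 had 0.04 (adjusted p = 0.795).

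**Figure D5:**
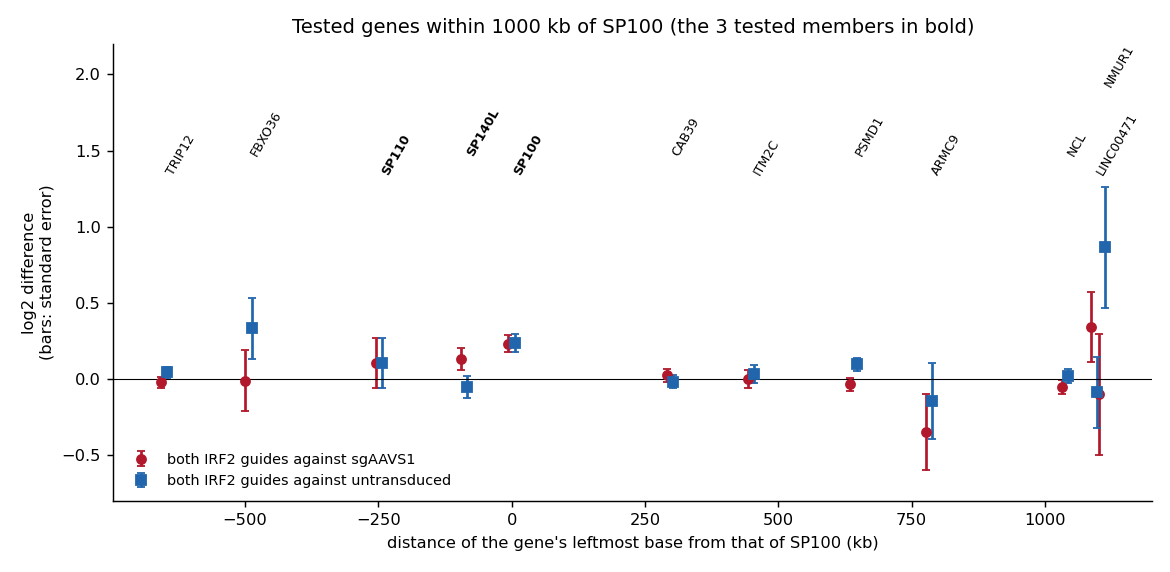
Log2 differences (vertical axis, bars are standard errors) of the tested genes within 1000 kb of SP100 by distance from SP100 (horizontal axis, kb). SP100 stands at 0.23 and 0.24, and the widest bars belong to genes with few reads such as NMUR1. None of the 9 genes outside the family passed the test against sgAAVS1 or untransduced cells, where 1.59% and 2.5% of all genes passed.

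The genes whose levels followed SP100 most closely over the 8 libraries, among 10341 genes with a mean log2 value of at least 4, were SYVN1, CEP170, XRN1, RBCK1 and BTBD2. Their Pearson r values were 0.974, 0.947, 0.945, 0.937 and 0.934, a description over libraries that share their scaling. None is on the interferon-stimulated list. Since they were picked for following SP100, which separates the guide libraries from the controls, their differences are given with no test. RBCK1, a subunit of the linear ubiquitin ligase complex, had a difference of 0.49 ± 0.05 against sgAAVS1 and 0.58 ± 0.05 against untransduced cells. For XRN1, a cytoplasmic exoribonuclease, the differences were 0.16 ± 0.04 and 0.14 ± 0.04. SYVN1, CEP170 and BTBD2 had differences of 0.09, 0.06 and 0.08 against sgAAVS1.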

How the data were processed

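Per the labels' protocols, ribosomal RNA was removed and a directional library kit was used. Reads were handled with cutadapt and Bowtie2 on hg38, per the submitters' processing notes. For versions, counting tool and strand setting, the sources used here give nothing. The authors deposited log2 values, which proved to be gene read numbers scaled by 1 factor in each library. All values above the column minimum gave whole reads (tolerance 0.01 read, 100% of values), and a gene with no read stood at 0.9 read. Whole reads were recovered for depth (5248359 to 6738348 reads per library) and counting intervals, which cover counting error only.

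Group means were fitted to the deposited log2 values of all 8 libraries with limma 3.58.1 in R 4.3.3, with a mean-variance trend. Genes with a mean log2 value of at least 0 were tested (14665 of 35805). The residual df was 4 and the prior df 22.4. The test was two-sided, with Benjamini-Hochberg adjustment over the tested genes and a threshold of 0.05. The fit was tested on simulated reads with known changes. Those reads held neither pairs closer than counting noise nor a shift in scaling between the guides, so the simulation does not cover these. The p-values measure only the spread between libraries, which may be technical. Errors of differences are model standard errors. Annotation came from GENCODE 29 and promoters from RefSeq (GRCh38.p14). Python 3.11.15 was used for the other steps.

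The 7 genes and the gene lists were chosen with earlier results of these data known. All 7 are named, and 1 item from another list is not reported here. From other lists, the genes named are among those called or at most 4 others, and not every called gene is named. For likeness, the 5 genes with the highest Pearson r are named. Deviations of same-numbered libraries correlated between -0.0794 and 0.216 over the pairs of groups, so the replicate numbers were not used as pairs. Alternatives covered the trend, weights, scaling, filter, voom on recovered reads, the value for genes without reads, a replicate block, the groups in the fit and leaving out each library. Those added after seeing the data were counting close pairs as 1 library and the ratio of SP100 to SP140L, and AANNGAAA was an added motif.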

Additional observations from a re-analysis of the deposited data

Results flagged for a closer look

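DAXX differed between the guides to IRF2: its level in sg1-IRF2 cells was 0.1614 above that in sg2-IRF2 cells on the log2 scale (standard error 0.0525, limma adjusted p = 0.0422). Both sg1-IRF2 libraries (7.32 and 7.35) were above both sg2-IRF2 libraries (7.15 and 7.20), as were those of 58.3% of all genes. The median of all genes was shifted by 0.112 in the same direction. With library medians aligned, the DAXX difference was 0.05 (adjusted p = 0.741). IRF2 was lowest with sg1-IRF2, and its part in the DAXX difference was not tested.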

How the results depend on the processing

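Counted by threshold alone, 1 of the 6 genes lay under adjusted p 0.05 for both IRF2 guides against each control: SP100, which was chosen by that pattern, so these counts support nothing. Against sgAAVS1 the count was 0 without the mean-variance trend, with array weights, with no filter on low values and with close pairs counted as 1 library, and it ranged from 0 to 1 with a library left out. It was 0 without sgAAVS1 replicate 2 and without any one library of either IRF2 guide. Against untransduced cells the count was 0 without the trend, with no filter and with close pairs as 1 library, and 0 to 1 with a library left out (0 without either untransduced library or any IRF2-guide library). The SP100 difference against sgAAVS1 lay between 0.218 and 0.254 in 20 alternatives. As a ratio to SP140L it was 0.102. For sgAAVS1 against untransduced cells the count was 0 in all 19 alternatives. Counting limits SP110 and SP140.

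Between sg1-IRF2 and sg2-IRF2 the count of 1 was 0 without the trend, with medians aligned, under quantile normalization, with no filter, under the replicate block and with close pairs as 1 library. It was 2 (SP100 and DAXX) under array weights and in a fit of the compared groups alone, and 0 to 2 with a library left out. It was 0 without either untransduced library or any guide library, and 2 without either sgAAVS1 library. With the replicate block the DAXX difference between the guides had adjusted p = 0.0504. The block changed no other call among the 6 genes. The numbers share only a label. Over all genes, counts called across alternatives ran from 60 to 428 against sgAAVS1 (233 as reported), 54 to 835 against untransduced cells (366), 2 to 4033 between the guides (1952) and 11 to 1456 for sgAAVS1 against untransduced cells (697).

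Some differences that did not pass changed sign. Scaling turned PML between the guides to -0.0987 (medians aligned) and -0.0861 (quantile), ATRX there to -0.00919 and -0.0031, and SP110 for sgAAVS1 against untransduced cells to -0.0217 and -0.0336. With a library left out, SP110 ranged from -0.0536 to 0.261 against sgAAVS1, from -0.0204 to 0.232 against untransduced cells and from -0.156 to 0.159 between the controls. SP140L ranged from -0.13 to 0.0215 against untransduced cells. PML ranged from -0.0145 to 0.0414 between the guides and from -0.036 to 0.0142 between the controls. DAXX ranged from -0.0854 to 0.00993 against sgAAVS1 and from -0.0191 to 0.0495 against untransduced cells. ATRX ranged from -0.0638 to 0.00907 and ZNFX1 from -0.0104 to 0.128 against sgAAVS1. The cause of these changes was not tested. HIPK2 kept its call against sgAAVS1 in 7 of 20 alternatives.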
